A study of Mus musculus with 16 samples.

Results

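The mechanistic target of rapamycin (mTOR) works in 2 protein complexes, and the 10 genes described here encode their subunits and the factor that stabilises the kinase. Mtor, Mlst8, Deptor and Telo2 serve both complexes, Rptor and Akt1s1 belong to mTOR complex 1, and Rictor, Mapkap1, Prr5 and Prr5l belong to mTOR complex 2. All 10 were found by their symbols among 47593 genes in the count table of 16 RNA-seq libraries, and all 10 were among the 16553 genes with enough read pairs to be tested. The libraries came from the cortex of heterozygous 5×FAD mice at 5 months of age, a C57BL/6-SJL hybrid strain that carries mutant human transgenes under the neuron-specific Thy-1 promoter. Every group carried these transgenes, so no non-transgenic mouse enters any comparison. The mice ate chow with rapamycin, or vehicle chow with the microencapsulation carrier alone, from 2 months of age. Each of the 4 groups, vehicle and rapamycin in females and in males, gave 4 libraries by the labels. The study's text describes the sequenced animals differently and speaks of pooled samples, so whether a library is a single mouse is not settled, and SD and p-values here measure the spread between libraries.

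mTOR complex 1 senses amino acids at the lysosome and growth factor signals through the small GTPase Rheb, and it drives protein synthesis and restrains autophagy. mTOR complex 2 responds to insulin-like signals and phosphorylates AKT, SGK and conventional protein kinase C. Rapamycin first binds the small protein FKBP12, and this pair docks on mTOR next to its catalytic site, which blocks complex 1 directly. Prolonged exposure is known from cell culture and tissues also to hinder the assembly of complex 2. These are events at the protein level, and the libraries measured messenger RNA only.

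Mtor, Rptor and Rictor were lower in the cortex of rapamycin-fed mice than of vehicle-fed mice when both sexes were analysed together. The kinase gene fell by 23.4%, the complex 1 scaffold Rptor by 16.7% and the complex 2 scaffold Rictor by 18.4%, as fitted by edgeR with sex and batch in the model. No member rose past the threshold, although Prr5, a complex 2 subunit, lay just outside it at a log2 fold change of 0.49 (SE 0.159, adjusted p = 0.0504, edgeR). A gene is called here when its Benjamini-Hochberg adjusted p over all 16553 genes is under 0.05. Thus 3 of 10 members were called lower, against 6.86% of all genes, and 0 were called higher, against 6.46%. None reached the study's additional limit of a 1.5-fold change, which 2.26% of all genes met. Of the 10 members, 8 had a negative log2 fold change, and their median was -0.16 against 0.02 over all genes. All 3 calls were lost when the 3 libraries of lowest exon length slope, described next, were left out together, a step chosen after the data were seen. In that fit 1 of 17233 genes was called in the whole table.

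The libraries held 16393501 to 20593089 counted read pairs each. Members received between 53 pairs, for Prr5 in its lowest library, and 3087 pairs in their highest. Levels are given as CPM, the counts per 1000000 read pairs, scaled with TMM factors. For each library, the deviation of log2 CPM from the mean of all libraries was set against the exon length of all tested genes, and the slope of this line is called the exon length slope. A negative slope means that long genes were low in that library relative to the other libraries. It ran from 0.0004 to 0.10 in the 8 vehicle libraries and from -0.13 to 0.06 in the 8 rapamycin libraries. Female rapamycin 1 (-0.12), female rapamycin 2 (-0.13) and male rapamycin 2 (-0.12) had the lowest slopes. The same 3 libraries had the highest share of pairs on mitochondrially encoded genes, 6.88 to 6.99%, while the vehicle libraries held 2.64 to 5.47%. The library labelled male rapamycin 4 went against its labelled sex in its sex-linked genes, and male vehicle 4 carried a summed choroid plexus marker level of 1900 CPM, against at most 317 CPM in the other libraries. The labelled tissue was checked with marker lists of neurons, glia, vessels, blood and neighbouring regions, and 0 markers of any list were at 0 throughout a diet group. Of 5 glutamatergic neuron markers 1 was called lower with rapamycin, and 0 of the markers in the other lists were called. Over all genes 6.86% were called lower and 6.46% higher. Counts this small in lists of 3 to 6 markers therefore say little about cell content. The summed glutamatergic level was 4237 to 5937 CPM with vehicle and 3911 to 5489 CPM with rapamycin, and the oligodendrocyte level 3650 to 5911 and 3631 to 9465 CPM. The astrocyte level was 706.3 to 1054 and 698.5 to 1212 CPM, and the striatum level 129 to 202.5 and 114.9 to 320.5 CPM. Female rapamycin 1, 2 and 5 held 320.5, 237.8 and 260 CPM of striatum markers, and female rapamycin 4 the lowest value. The summed microglia level did not overlap between diets in females, with 423.7 to 552.5 CPM for vehicle and 343.2 to 382.9 CPM for rapamycin, and overlapped in males, with 340.9 to 427.5 and 224.8 to 458.6 CPM. The part of these levels in the members' values was not tested. In whole tissue, fewer cells of a type and less RNA per cell cannot be told apart.

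To place the subunits on a common scale, counts were divided by merged exon length and scaled to a sum of 1000000 in each library, which gives the TPM level. The merged length joins all exons listed for a gene, so TPM is understated where it exceeds the length of the transcripts present. Akt1s1, which encodes the proline-rich inhibitory subunit of complex 1, had the highest level at 57.7 ± 6.50 TPM (SD, n = 16). Mtor followed at 41.5 ± 11.8 TPM and Mapkap1 at 36.6 ± 5.13 TPM. The scaffold of complex 1, Rptor, had a TPM level of 26.4 ± 5.47, the shared beta-propeller subunit Mlst8 22.6 ± 4.57 and the complex 2 scaffold Rictor 19.7 ± 5.84. Deptor, Prr5, Telo2 and Prr5l formed the low end with mean TPM levels of 12.7, 9.93, 9.59 and 8.73. Neighbours in this order were not always separated within a library. Akt1s1 was above Mtor in 13 of 16 libraries, and Mtor was above Mapkap1 in 13. Mapkap1 was above Rptor in all 16, and Rptor above Mlst8 in 15. Of the 3366 exon bases of Mlst8, 997 are shared with another gene, and pairs that map to several genes were not counted. The TPM of Mlst8 may therefore be understated, and its place below Rptor is uncertain. Deptor was above Prr5 in 10 of 16 libraries and Prr5 above Telo2 in 9, so these neighbours changed places between libraries. The plot of TPM by gene shows the same order with each library as a point.

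**Figure D1:**
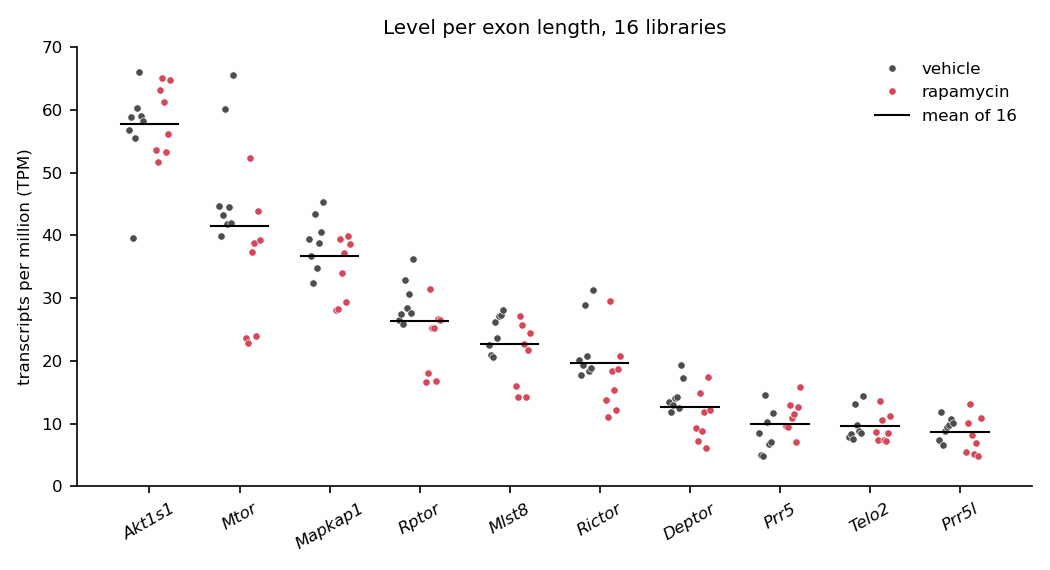
Level of the 10 subunit genes as TPM (y axis, level per exon length) in 16 cortex libraries, ordered by mean (black line). Points are libraries, grey for vehicle and red for rapamycin; Akt1s1 is highest at a mean of 57.7 TPM and Prr5l lowest at 8.73 TPM.

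Mtor, on chr4:148448611-148557683 (GRCm38, forward strand), encodes the serine/threonine kinase itself. In female vehicle libraries 1 to 4 its level was 136, 127, 145 and 160 CPM, and in female rapamycin libraries 1, 2, 4 and 5 it was 87.6, 85.8, 140.5 and 111 CPM. Male vehicle libraries 1 to 4 held 131, 136, 132 and 173 CPM, and male rapamycin libraries 1 to 4 held 129, 89.0, 136.5 and 116 CPM. The 3 lowest values of all 16 belonged to female rapamycin 1 and 2 and male rapamycin 2, and the vehicle and rapamycin ranges overlapped in each sex. Of the 8 rapamycin libraries, 6 were below the vehicle median. The mean was 142.5 ± 16.1 CPM in vehicle mice and 112 ± 22.5 CPM in rapamycin mice (SD, n = 8 each). The log2 fold change of -0.38 (SE 0.0968) had an edgeR adjusted p of 0.0208. Within batch 1 the mean log2 CPM differed by -0.38 between diets, and within batch 2, where all 3 rapamycin libraries lay below both vehicle libraries, by -0.45. The exon length slope separated the diets in batch 2 too, at 0.094 and 0.10 with vehicle and -0.033 to 0.064 with rapamycin. How many of all genes separate so in batch 2 was not counted. The call was lost without female rapamycin 1 (-0.35, adjusted p = 0.0554, edgeR) or female rapamycin 2 (-0.35, adjusted p = 0.0514), and held without male rapamycin 4 (-0.36, adjusted p = 0.0337). Without the 3 libraries of lowest slope the other 5 rapamycin libraries had 111 to 140.5 CPM, and the fitted value was -0.22 with an edgeR adjusted p of 0.348. With the exon length slope as a covariate it was 0.003 (adjusted p = 0.998).

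The other shared subunits did not pass the threshold. Mlst8, on chr17:24473550-24479078 (reverse strand), encodes the small subunit that binds the kinase domain. Its level was 22.2 to 23.2 CPM over the female vehicle libraries and 17.7, 19.6, 24.2 and 25.4 CPM, in rising order, over the female rapamycin libraries. The male vehicle libraries had 24.6 to 28.5 CPM and the male rapamycin libraries 17.6, 22.5, 24.1 and 25.2 CPM. Again the 3 lowest values were those of female rapamycin 1 and 2 and male rapamycin 2, while the other 5 rapamycin libraries, at 22.5 to 25.4 CPM, lay inside the vehicle range. The log2 fold change was -0.18 (SE 0.0884, adjusted p = 0.181, edgeR). Of the 3366 exon bases of Mlst8, 997 also belong to Bricd5 on the opposite strand, which had 0 counts. The pairs were counted without regard to strand, so pairs from this stretch cannot be assigned between these genes.

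Deptor, on chr15:55112317-55259271 (forward strand), encodes an inhibitor that binds the kinase in both complexes and is itself degraded when mTOR is active. Female vehicle libraries 1 to 4 held 36.2, 33.0, 38.3 and 32.9 CPM, and female rapamycin libraries 1, 2, 4 and 5 held 30.3, 23.7, 35.2 and 22.9 CPM. Male vehicle libraries 1 to 4 held 39.3, 33.5, 53.4 and 39.8 CPM, and male rapamycin libraries 1 to 4 held 34.6, 19.9, 47.4 and 31.9 CPM. The highest vehicle and the highest rapamycin value both came from a male replicate 3, and 7 of 8 rapamycin libraries were below the vehicle median. The SD of 11.3 CPM in male rapamycin mice was wide beside their mean of 33.5 CPM. Its log2 fold change of -0.31 was near that of Rictor, but the SE was 0.146 and the adjusted p 0.156 (edgeR). It passed without male rapamycin 3 (-0.43, adjusted p = 0.0401).

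Telo2, on chr17:25099570-25115967 (reverse strand), encodes a chaperone component that stabilises mTOR and related kinases. Its mean was 23.2 ± 3.92 CPM in vehicle mice and 23.7 ± 3.18 CPM in rapamycin mice (SD, n = 8 each). The lowest, median and highest values were 19.2, 21.3 and 30.1 CPM with vehicle and 19.6, 23.5 and 28.9 CPM with rapamycin. The ranges nearly coincided, and the log2 fold change was -0.006 (SE 0.0763, adjusted p = 0.970, edgeR). At 8006 merged exon bases Telo2 is among the longer members, and it had the smallest fold change of the 10.

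Of the complex 1 subunits, Rptor was called and Akt1s1 was not. Rptor lies on chr11:119602905-119899576 (forward strand) and encodes raptor, the scaffold that presents substrates to the kinase. Female vehicle libraries 1 to 4 held 108, 117, 116 and 117 CPM, and female rapamycin libraries 1, 2, 4 and 5 held 82.2, 90.6, 112 and 99.8 CPM. Male vehicle libraries 1 to 4 held 118.5, 125, 115 and 127 CPM, and male rapamycin libraries 1 to 4 held 112, 83.1, 111 and 105 CPM. In males all 4 rapamycin libraries lay below all 4 vehicle libraries, while in females rapamycin 4 lay above vehicle 1. How many of all genes separate so was not counted. Male rapamycin 4, at 105 CPM, is the library whose sex-linked genes went against its label. Each of the 8 rapamycin libraries was below the vehicle median. The mean fell from 117.8 ± 5.95 CPM to 99.4 ± 12.7 CPM (SD, n = 8 each), and the log2 fold change was -0.26 (SE 0.0715, adjusted p = 0.0256, edgeR). Within batch 1 the mean log2 CPM differed by -0.30 and within batch 2, without overlap between diets, by -0.21. The exon length slopes did not overlap between diets in batch 2 either, and the share of all genes that separate there was not counted. The call was lost without female rapamycin 1 (-0.23, adjusted p = 0.0675, edgeR), female rapamycin 2 (-0.26, 0.0571) or male rapamycin 2 (-0.22, 0.0577). It held without male rapamycin 4 (-0.26, adjusted p = 0.0413). Without the 3 libraries of lowest slope the other 5 rapamycin libraries had 99.8 to 112 CPM, all below the vehicle median, and the fitted value was -0.15 (adjusted p = 0.389, edgeR). With offsets that remove each library's exon length trend it was -0.04 (adjusted p = 0.746).

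Akt1s1, on chr7:44848991-44855421 (forward strand), encodes the AKT substrate that holds complex 1 in check. Female vehicle libraries 1 to 4 held 52.6, 57.0, 40.4 and 45.0 CPM, and female rapamycin libraries 1, 2, 4 and 5 held 60.3, 59.0, 51.4 and 58.8 CPM. Male vehicle libraries 1 to 4 held 57.4, 61.2, 56.2 and 46.6 CPM, and male rapamycin libraries 1 to 4 held 62.0, 60.3, 53.1 and 58.3 CPM. The lowest values belonged to female vehicle 3 and 4 and male vehicle 4, which had the 3 highest exon length slopes, and the groups overlapped in each sex. In batch 2 all 3 rapamycin libraries were above both vehicle libraries. The exon length slopes of these libraries also did not overlap between diets, and the share of all genes that separate so was not counted. The log2 fold change of 0.18 (SE 0.0782) did not pass the threshold (adjusted p = 0.138, edgeR). Of its 3072 exon bases, 162 are shared with neighbouring genes.

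**Figure D2:**
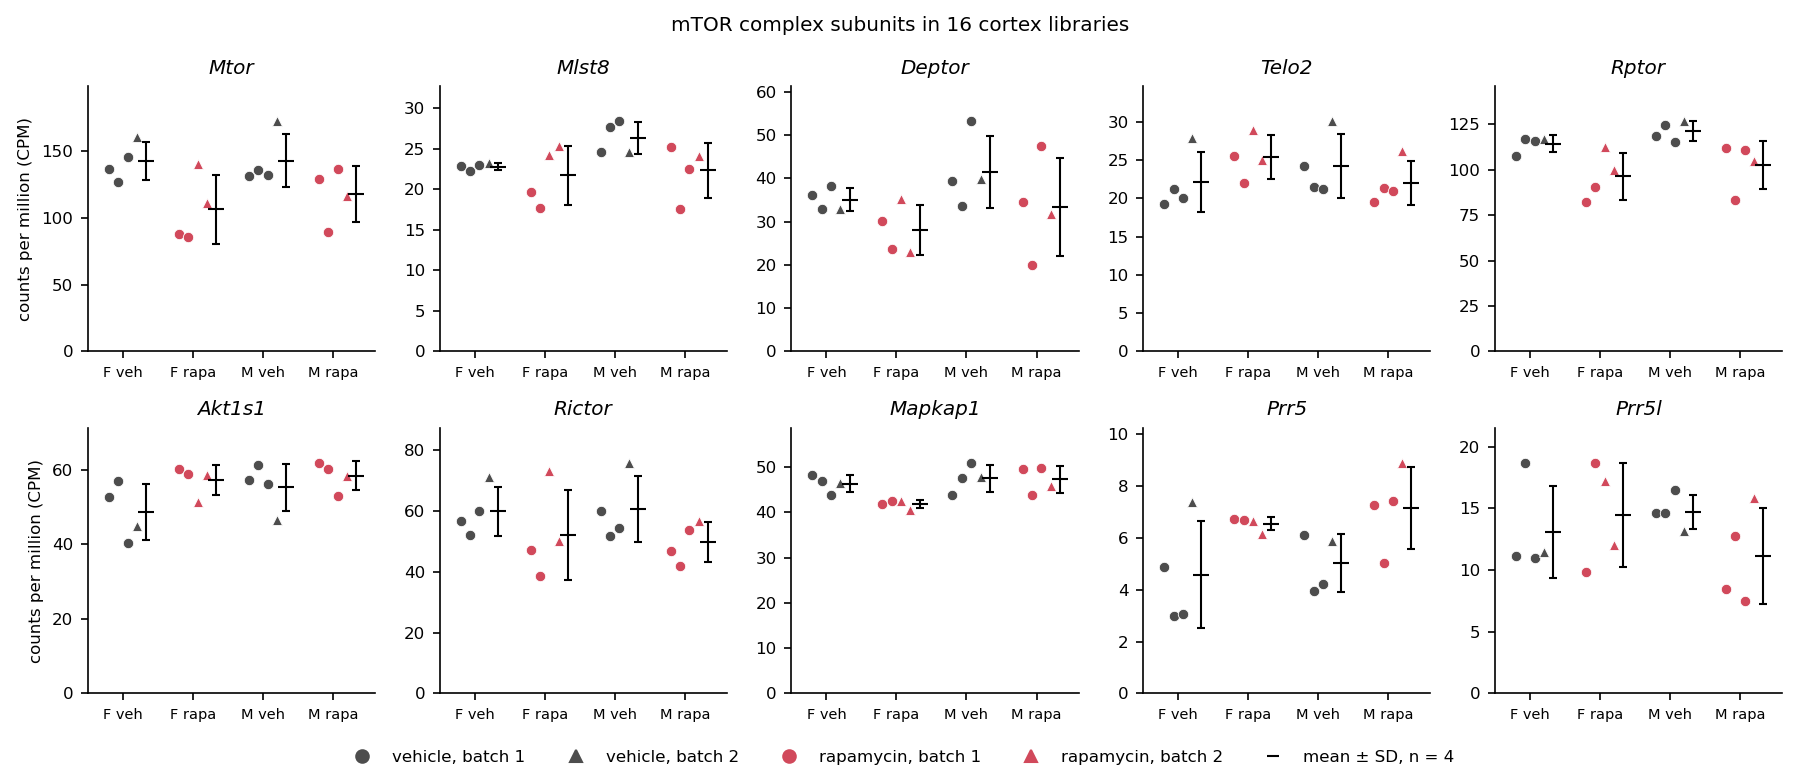
Level of each subunit gene in CPM (y axis from 0) in the 4 groups (x axis, F female, M male, veh vehicle, rapa rapamycin), with circles for batch 1, triangles for batch 2 and bars for mean ± SD (n = 4). Rptor in males, by label, was at 83.1 to 112 CPM with rapamycin and 115 to 127 CPM with vehicle. Mapkap1 in females was at 40.6 to 42.5 and 43.9 to 48.2 CPM. The share of all genes without overlap was not counted.

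Rictor was the only complex 2 subunit called in both sexes together. It lies on chr15:6708381-6800398 (forward strand) and encodes the scaffold that replaces raptor in complex 2 and keeps it insensitive to acute rapamycin. Female vehicle libraries 1 to 4 held 56.6, 52.0, 60.1 and 71.0 CPM, and female rapamycin libraries 1, 2, 4 and 5 held 47.0, 38.5, 73.0 and 50.2 CPM. Male vehicle libraries 1 to 4 held 60.1, 51.8, 54.3 and 75.9 CPM, and male rapamycin libraries 1 to 4 held 46.9, 41.8, 53.6 and 56.7 CPM. Female rapamycin 4 had the second highest value of all 16 and the diets overlapped in each sex, yet 7 of 8 rapamycin libraries were below the vehicle median. The mean fell from 60.2 ± 8.86 CPM to 51.0 ± 10.7 CPM (SD, n = 8 each), with a log2 fold change of -0.29 (SE 0.0848, adjusted p = 0.0322, edgeR). The mean log2 CPM differed by -0.30 within batch 1 and by -0.31 within batch 2. Its call was the least stable of the 3, since it passed in 7 of the 16 fits that each left out 1 library. It did not pass without female vehicle 1 or 3, female rapamycin 1, 2 or 5, male vehicle 1 or 4, or male rapamycin 2 or 4, with adjusted p of up to 0.0768 (edgeR). Without the 3 libraries of lowest slope the fitted value was -0.22 (adjusted p = 0.370, edgeR), and without male rapamycin 4 it was -0.28 (adjusted p = 0.0522).

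Mapkap1, on chr2:34406771-34624950 (forward strand), encodes the subunit, also called SIN1, that recruits the substrates of complex 2. Female vehicle libraries 1 to 4 held 48.2, 47.0, 43.9 and 46.4 CPM, and female rapamycin libraries 1, 2, 4 and 5 held 41.8, 42.5, 42.5 and 40.6 CPM. The male vehicle libraries held 43.8 to 51.0 CPM and the male rapamycin libraries 43.8 to 49.8 CPM. In females every rapamycin library was below every vehicle library, a gap of means 2.47 times the larger SD, and in males the ranges nearly coincided. The female log2 fold change of -0.14 (SE 0.0857) had an edgeR adjusted p of 0.323. In both sexes together it was -0.07 (adjusted p = 0.423), and the test of the difference between the sexes gave -0.14 (SE 0.120, adjusted p = 0.999).

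Prr5 and Prr5l encode paralogous, mutually exclusive partners of rictor. Prr5, on chr15:84669620-84703673 (forward strand), is the shortest member at 1917 bases. Female vehicle libraries 1 to 4 held 4.89, 3.00, 3.05 and 7.39 CPM, and female rapamycin libraries 1, 2, 4 and 5 held 6.73, 6.69, 6.64 and 6.17 CPM. Male vehicle libraries 1 to 4 held 6.12, 3.95, 4.21 and 5.87 CPM, and male rapamycin libraries 1 to 4 held 7.27, 5.04, 7.42 and 8.91 CPM. All 8 rapamycin libraries were above the vehicle median, but female vehicle 4 was higher than every female rapamycin library. The mean was 4.81 ± 1.56 CPM with vehicle and 6.86 ± 1.11 CPM with rapamycin (SD, n = 8 each). Its adjusted p of 0.0504 by edgeR was 0.0230 by DESeq2 with the same terms. By edgeR it passed without female vehicle 4 (0.61, adjusted p = 0.0300), female rapamycin 4 (0.52, 0.0346) or male vehicle 1 (0.56, 0.0391). The difference in mean log2 CPM was 0.68 within batch 1 and 0.12 within batch 2. With the 3 libraries of lowest slope left out the log2 fold change was 0.42 (adjusted p = 0.367, edgeR).

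Prr5l, on chr2:101714285-101883027 (reverse strand), had an SD of 3.74 to 4.21 CPM in 3 groups and of 1.37 CPM in male vehicle mice. Its lowest, median and highest values were 10.99, 13.9 and 18.7 CPM with vehicle and 7.48, 12.4 and 18.7 CPM with rapamycin. Female vehicle 2 and female rapamycin 2 held the highest values of their groups, at 18.7 CPM each, and male rapamycin 1 and 3 the lowest, at 8.47 and 7.48 CPM. Male rapamycin 4, whose sex-linked genes went against its label, held 15.9 CPM, the highest of its group. The log2 fold change was 0.12 (SE 0.253) in females and -0.41 (SE 0.249) in males, and their difference did not pass the test (adjusted p = 0.999, edgeR). In both sexes together it was -0.15 (SE 0.186, adjusted p = 0.628).

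The sequences upstream of Mtor, Rptor and Rictor are shown because these 3 genes were called lower together. Each is the 300-base RefSeq window (GRCm38.p6) from 250 bases before the start site to 50 after it, on the forward strand. Capitals mark matches on either strand to any of 4 motifs. Searched were the E-box, spelled CACGTG, which factors of the Myc and TFEB families bind, and the GC box, spelled GGGCGG, which Sp factors bind. The search also covered the CCAAT box, matched by those same letters, which nuclear factor Y binds, and the TATA box, spelled TATAAA, which the general transcription machinery binds. The windows are chr4:148448332-148448631 for Mtor, chr11:119602655-119602954 for Rptor and chr15:6708131-6708430 for Rictor.
Mtor: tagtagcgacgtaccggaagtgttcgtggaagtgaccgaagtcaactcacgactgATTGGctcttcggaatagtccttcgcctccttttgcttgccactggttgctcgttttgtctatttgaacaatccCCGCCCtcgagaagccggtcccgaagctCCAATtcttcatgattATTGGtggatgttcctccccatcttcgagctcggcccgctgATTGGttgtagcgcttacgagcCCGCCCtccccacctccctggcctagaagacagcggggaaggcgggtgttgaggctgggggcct
Rptor: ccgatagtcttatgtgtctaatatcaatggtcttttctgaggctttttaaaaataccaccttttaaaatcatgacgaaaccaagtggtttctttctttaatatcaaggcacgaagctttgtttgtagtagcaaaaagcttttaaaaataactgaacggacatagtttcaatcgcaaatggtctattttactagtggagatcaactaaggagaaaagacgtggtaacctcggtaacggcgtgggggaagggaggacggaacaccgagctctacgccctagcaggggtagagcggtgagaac
Rictor: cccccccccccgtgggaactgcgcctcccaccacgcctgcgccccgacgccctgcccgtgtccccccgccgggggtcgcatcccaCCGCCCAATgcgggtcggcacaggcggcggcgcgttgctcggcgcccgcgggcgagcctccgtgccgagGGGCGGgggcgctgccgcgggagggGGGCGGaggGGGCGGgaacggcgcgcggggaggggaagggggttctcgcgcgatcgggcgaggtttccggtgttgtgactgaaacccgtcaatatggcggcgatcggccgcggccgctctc
The Mtor window held 4 CCAAT boxes and 2 GC boxes. The Rictor window held 4 GC boxes and 1 CCAAT box that overlaps a GC box, at a GC content of 78.3%. The Rptor window, at 41.7% GC, held no match to any of the 4 motifs. Of 32851 mouse promoter windows of this length, 37.4% held a CCAAT box, 35.7% a GC box, 13.6% a TATA box and 7.15% an E-box. The 3 windows shared no motif, and a match of letters says nothing about whether a factor binds there.

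The study also asked whether the response depended on sex, so each sex was fitted with the 4 groups and batch. In females 0 of 10 members passed the threshold by edgeR, against 0.0121% of all genes, and 4 members had an unadjusted p under 0.05. Mtor came nearest with a log2 fold change of -0.51 (SE 0.137, adjusted p = 0.0709, edgeR). By DESeq2 with the same terms Mtor was the 1 member called in females (adjusted p = 0.0101), where 5.05% of all genes were called. Without female rapamycin 4, Mtor (-0.60, adjusted p = 0.0120, edgeR), Rptor (-0.34, 0.0445) and Rictor (-0.42, 0.0230) were called in females, 3 of 10 members against 12.6% of all genes. Mtor also passed without male rapamycin 2 (-0.51, 0.0440) or 4 (-0.54, 0.0446), in fits that called 2.74% and 2.07% of all genes. In males 0 of 10 passed, against 0% of all genes, and 3 had an unadjusted p under 0.05. The smallest adjusted p in males was that of Rptor, at 0.382 with a log2 fold change of -0.24 (SE 0.104). Rptor and Rictor had similar values in both sexes, -0.29 and -0.24 for Rptor and -0.32 and -0.27 for Rictor. The difference between the female and the male response was -0.25 (SE 0.192) for Mtor and passed the test for 0 of 10 members, against 0% of all genes, with 0 members at an unadjusted p under 0.05. DESeq2 likewise called 0 members in males, against 0.311% of 30236 genes, and 0 for this difference, against 0.0827% of them. Male rapamycin 4, whose sex-linked genes went against its label, was kept in these fits. Without it edgeR called 0 members in males and 0 for the difference, against 0% of all genes in each. In each of these fits 1 member had an unadjusted p under 0.05.

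**Figure D3:**
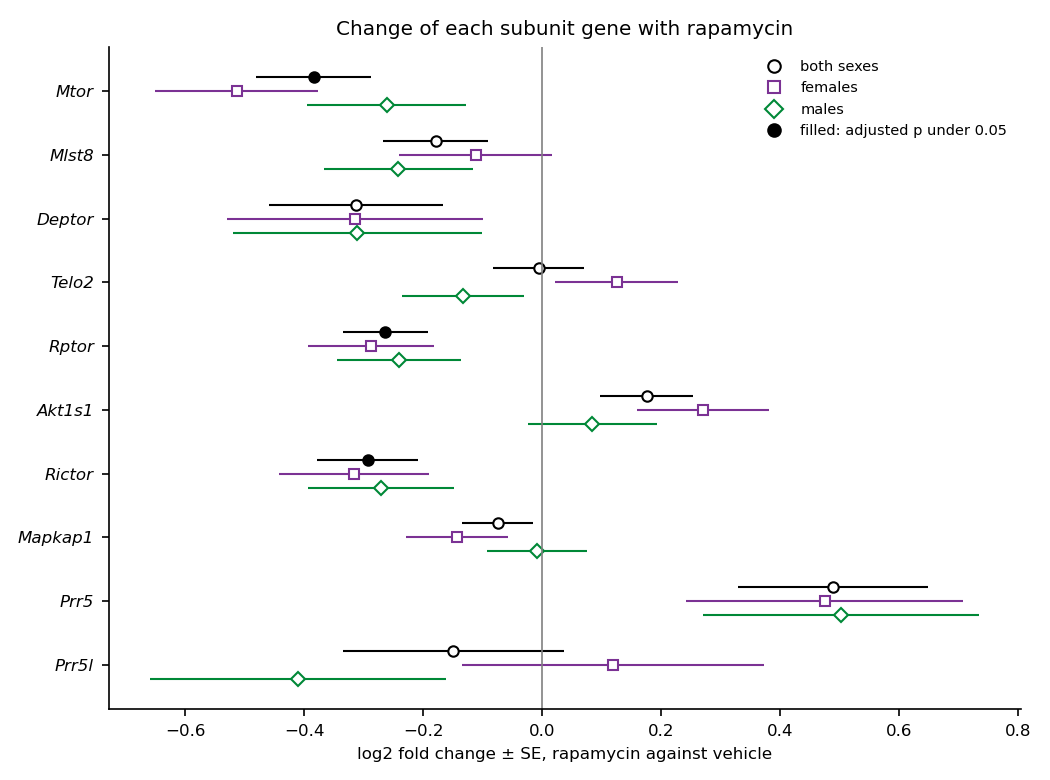
Log2 fold change of each subunit gene, rapamycin against vehicle (x axis, bars ± SE), for both sexes together, females and males. Filled symbols passed an adjusted p of 0.05; Mtor (-0.38), Rptor (-0.26) and Rictor (-0.29) did so in both sexes together and no symbol is filled for a single sex.

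Vehicle-fed females and males were compared to learn the level of the subunits by sex without the drug. Here 0 of 10 members passed by edgeR, against 0.0121% of all genes, and 0 had an unadjusted p under 0.05. The female minus male value was 0.0005 (SE 0.133) for Mtor and -0.007 (SE 0.122) for Rictor. Mlst8 had 22.8 ± 0.423 CPM in females and 26.3 ± 2.03 CPM in males (SD, n = 4 each), at a log2 fold change of -0.21 (SE 0.125, adjusted p = 0.999, edgeR). Its vehicle libraries did not overlap between the sexes, and the share of all genes that separate so was not counted. Over the 10 genes the 4 group means gave 30 gaps between neighbours in order of level. Only 5 gaps exceeded the larger SD of the groups on either side, by factors from 1.17 to 2.47.

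By their labels 11 libraries belong to batch 1 and the other 5 to batch 2, and members differed between them. Mtor, Telo2 and Rictor were called higher in batch 2, which is 3 of 10 members against 19.1% of all genes. No member was called lower, against 16.5% of all genes. The log2 difference was 0.40 (SE 0.0910, adjusted p = 0.00283, edgeR) for Rictor, 0.36 (SE 0.0816, adjusted p = 0.00278) for Telo2 and 0.28 (SE 0.104, adjusted p = 0.0451) for Mtor. For Telo2 the batch 1 means were 21.2 ± 1.71 CPM with vehicle (SD, n = 6) and 21.9 ± 2.21 CPM with rapamycin (n = 5). In batch 2 they were 29.0 ± 1.63 CPM (n = 2) and 26.7 ± 2.03 CPM (n = 3). For Rictor the batch difference was larger in size than the diet difference of -0.29. Without a batch term 0 members were called between diets in both sexes together, against 0.858% of all genes.

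The members' changes were set against their merged exon length. The 4 longest, Rptor (13471 bases), Mtor (10109), Rictor (9311) and Deptor (8874), had the 4 lowest log2 fold changes, from -0.38 to -0.26. The 2 shortest, Prr5 (1917 bases) and Akt1s1 (3072), had the only positive values. Telo2, next in length to Deptor, was the exception at -0.006. Across libraries the level of Mtor followed the exon length slope, from 85.8 CPM at the lowest slope to 173 CPM at the highest. Akt1s1 ran the other way, with 40.4 to 46.6 CPM in the 3 libraries of highest slope and 59.0 to 60.3 CPM in the 3 of lowest slope. With the slope, or the mitochondrial share, as a covariate, 0 members and 0 of all 16553 genes were called in both sexes together, with no member at an unadjusted p under 0.05. These measures moved with diet, so their part in the lower levels of Mtor, Rptor and Rictor cannot be told apart from that of the drug.

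**Figure D4:**
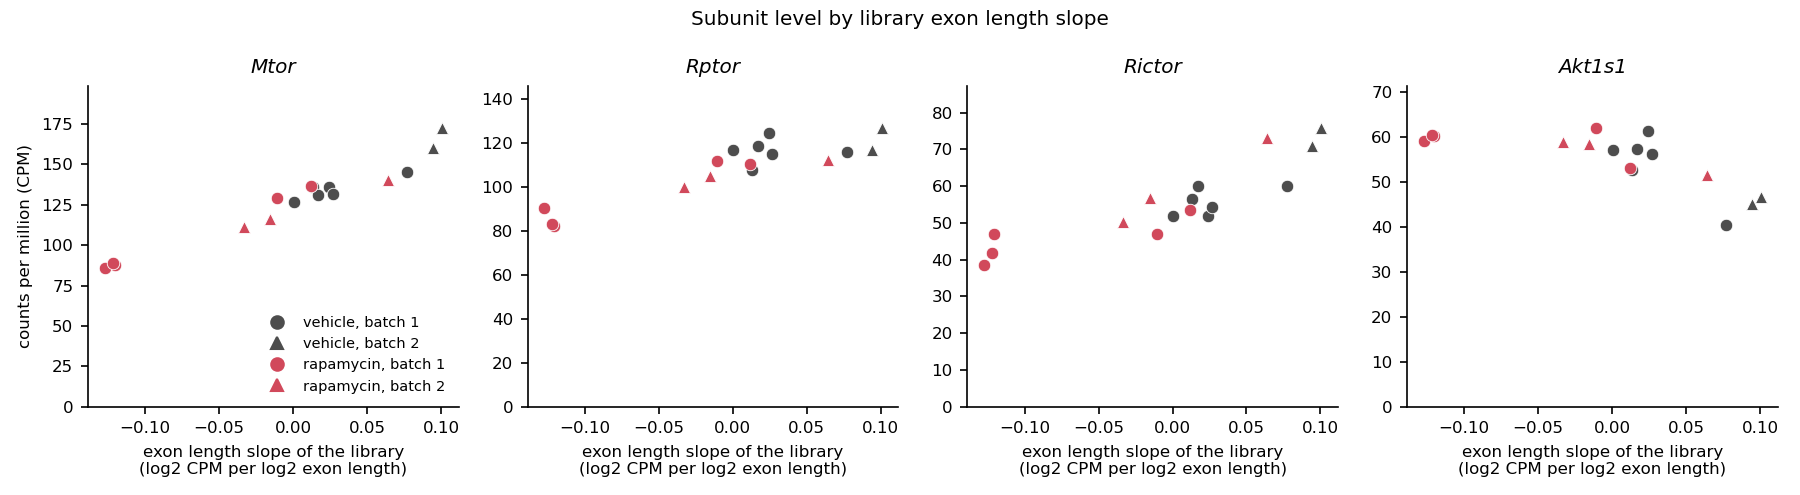
Level of Mtor, Rptor, Rictor and Akt1s1 in CPM (y axis from 0) against the exon length slope of each library (x axis, log2 CPM per log2 exon length). Each point is a library; the 3 rapamycin libraries at slopes of -0.13 to -0.12 hold 85.8 to 89.0 CPM of Mtor.

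**Figure D5:**
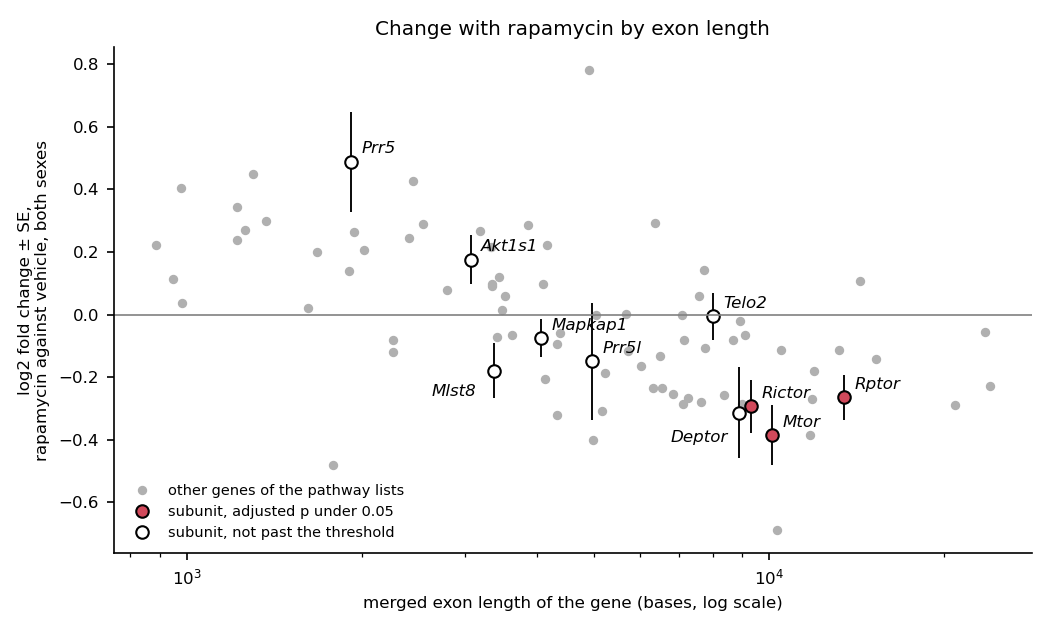
Log2 fold change in both sexes together (y axis, bars ± SE) against merged exon length in bases (x axis, log scale) for the 10 subunit genes and, in grey, 74 other genes of the pathway. The called members Mtor, Rptor and Rictor lie at 9311 bases or more, and Prr5 (0.49) lies at 1917 bases.

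Ratios of TPM within a library describe the balance of subunits without a scaling factor between libraries. They still carry the exon length slope where the 2 genes differ in length, as do Akt1s1 (3072 bases) and Mtor (10109 bases). The Rptor to Rictor ratio, scaffold of complex 1 to scaffold of complex 2, was 1.37 ± 0.182 in vehicle mice and 1.38 ± 0.198 in rapamycin mice (SD, n = 8 each). The ratio of Akt1s1 to Mtor was 1.23 ± 0.271 and 1.78 ± 0.432, with ranges of 0.888 to 1.48 and 1.20 to 2.26 that overlapped. That of Prr5 to its paralog Prr5l was 0.943 ± 0.396 and 1.54 ± 0.606. The scaffold ratio thus differed far less between diets than between libraries of a diet. The ratio of Telo2 to Mtor was 0.205 ± 0.0207 with vehicle and 0.276 ± 0.0605 with rapamycin, with ranges of 0.175 to 0.234 and 0.191 to 0.367 that overlapped. The highest Akt1s1 to Mtor ratios, 2.26, 2.26 and 2.23, belonged to female rapamycin 1 and 2 and male rapamycin 2, which had the lowest slopes. Their Telo2 to Mtor ratios of 0.367, 0.323 and 0.304 were also the highest. The part of the slope in these ratios was not tested. No test was run on the ratios, which were chosen with the members' values known.

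After removal of sex, batch and diet means, the members' log2 CPM values in the 16 libraries were compared with each other as a description. Mtor went most closely with Rptor (Pearson r = 0.824) and Rictor (0.735), and Deptor with Rictor (0.730). Akt1s1 ran against Rictor (-0.569) and Mtor (-0.542), and Prr5l against Mtor (-0.558). Of 45 pairs, 9 had r over 0.5 and 3 had r below -0.5. Among 14690 genes of at least 1 CPM, those most like Mtor were Ankrd17 (r = 0.975, Spearman rho = 0.979) and Arfgef3 (0.968, 0.941). Those most like Rptor were Sik2 (0.936, 0.791) and Zfp526 (0.927, 0.874), and those most like Rictor were Efr3b (0.952, 0.941) and Syn3 (0.935, 0.906). All these genes were read from the same libraries and so share their depth and exon length slope. Exon length was 3380 bases in Zfp526, and the others of the 6 genes were longer, from 6547 bases in Efr3b to 35531 bases in Ankrd17. The part of the exon length slope in this likeness was not tested.

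The wider pathway was read from lists of 77 other genes, of which 74 were tested. In both sexes together 5 (6.76%) were called higher and 6 (8.11%) lower, near the shares of 6.46% and 6.86% over all genes. The single lists held 5 to 18 tested genes, and at these shares a count of 0 or 1 says little about a list. The 5 higher genes had exon lengths of 979 to 2545 bases and the 6 lower genes of 4327 to 11774 bases. In the Rag and Ragulator list, the lysosomal platform that recruits complex 1, 3 of 9 rose and 0 fell, with a median log2 fold change of 0.22 against 0.02 over all genes. Lamtor4 rose from 22.5 ± 2.38 to 30.2 ± 4.96 CPM (SD, n = 8 each; log2 fold change 0.45, SE 0.0927, adjusted p = 0.0128, edgeR), Lamtor2 by 0.34 on the log2 scale and Lamtor1 by 0.30. Rragd, a Rag GTPase, stood lowest in this list at -0.31 (adjusted p = 0.0693). Among 18 tested genes of the GATOR and nutrient sensor list the median was -0.01, 0 rose and 2 fell. Depdc5, a subunit of the GATOR1 complex that inhibits the Rag GTPases, fell by 0.39 on the log2 scale and Fnip1, a folliculin partner, by 0.28. Sec13 had the highest value of this list at 0.27 (adjusted p = 0.0690).

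Upstream of complex 1, the TSC complex switches Rheb off. In the TSC and Rheb list 0 of 5 genes passed, against 6.46% of all genes called higher and 6.86% lower. Values ran from -0.27 for Tsc1 (adjusted p = 0.0590, edgeR) to 0.27 for Tbc1d7 (adjusted p = 0.0956). In the Telo2 partner list 0 of 6 passed, between Tti1 at -0.21 and Pih1d1 at 0.24. Of the 5 kinases related to mTOR, Atm, the DNA damage kinase, fell from 18.3 ± 4.88 to 12.5 ± 5.69 CPM (SD, n = 8 each; log2 fold change -0.69, SE 0.152, adjusted p = 0.0145, edgeR) and 0 rose, with Atr highest at -0.05. Their median log2 fold change was -0.23.

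Downstream, 0 of 11 tested substrates of complex 1 passed, against 6.46% of all genes called higher and 6.86% lower. They lay between the translation repressor Eif4ebp2 at -0.48 (adjusted p = 0.136, edgeR) and the S6 kinase Rps6kb2 at 0.43 (adjusted p = 0.0999). Among the 10 substrates of complex 2, Prkcb, a conventional protein kinase C, fell from 513.9 ± 64.4 to 425 ± 31.5 CPM (SD, n = 8 each; adjusted p = 0.0343, edgeR) and 0 rose. Sgk1 had the highest log2 fold change of all pathway genes at 0.78 (SE 0.298) but did not pass (adjusted p = 0.0856). In the FKBP list 1 of 5 genes rose, Fkbp1b, by 0.41 on the log2 scale, and Fkbp4 stood lowest at 0.08. Fkbp1a, which encodes FKBP12, the binding partner of rapamycin, had a value of 0.29 (SE 0.0964, adjusted p = 0.0555, edgeR). In the list of genes that control Deptor protein, the ubiquitin ligase adaptors Fbxw11 and Btrc fell by 0.32 and 0.24 on the log2 scale, and the deubiquitinase Otub1 rose by 0.29. In females, in males and for the difference between the sexes, 0 of the 74 genes were called by edgeR, against 0.0121%, 0% and 0% of all genes.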

How the data were processed

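The deposited table, made by the authors, gives for each gene the count of read pairs in each of 16 libraries, not normalized. Per the file headers and the labels, reads were trimmed with Trimmomatic 0.39, aligned with HISAT2 2.2.1 to GRCm38 (mm10) and counted with featureCounts 2.0.3 over exons by gene name, without strand and without pairs that map to several genes. The study's methods named DESeq2 as its test.

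Here the counts as deposited were tested with edgeR 4.0.16 in R 4.3.3 (TMM factors, filterByExpr with a minimum count of 10, quasi-likelihood test, Benjamini-Hochberg adjustment over 16553 genes). The terms were sex, batch and diet, or the 4 groups and batch, all from the labels. The SE is the log2 fold change divided by the root of its F value. TPM used the merged exon lengths in the table. DESeq2 1.42.0, other scalings, covariates, batch 1 alone, a replicate block and leaving out libraries were alternatives. Depth was 16393501 to 20593089 pairs per library, and the lowest member count was 53 pairs, so counting error is widest for Prr5. Libraries of equal replicate number were not treated as matched. Where the ranges of a member did not overlap between groups, the share of all genes without overlap was not counted. The scripts were tested on simulated data. No 2 libraries of a group agreed within sampling noise (lowest chi-square per degree of freedom 11.5).

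All 10 members are named. Pathway genes are named where called in both sexes together or at an extreme of their list; Fkbp1a was added after its values were seen, and 1 gene at an extreme is not reported here. Likeness took the 2 genes of highest Pearson r for Mtor, Rptor and Rictor. The members and lists were chosen with earlier results of these data known. Promoter windows are from RefSeq, which gave windows for 9 of 10 members. Figures were drawn with matplotlib 3.10.9.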

Additional observations from a re-analysis of the deposited data

Results flagged for a closer look

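In 4 of the 40 groups of 4 libraries checked, 10 genes in each of 4 groups, a single library stood apart by Dixon's criterion for the gap over the range, which chance alone meets in about 1 of 20 groups. Mtor in male vehicle 4 was 172.6 CPM, above the 131 to 136 CPM of the other male vehicle libraries. This library also held the highest choroid plexus marker level, and without it the log2 fold change of Mtor was -0.38 (adjusted p = 0.0429, edgeR). The part of those cells in the Mtor value was not tested. Rptor in female vehicle 1 was 107.6 CPM, below the 116 to 117 CPM of its group. Prr5l in female vehicle 2 was 18.66 CPM, above the 10.99 to 11.5 CPM of its group. Akt1s1 in female rapamycin 4 was 51.44 CPM, below the 58.8 to 60.3 CPM of its group.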

How the results depend on the processing

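In both sexes together 3 members were called. The count was 0 with no batch term (0.858% of all genes called, against 13.3% in the reported fit), 0 in batch 1 only (7.45%), 0 with the exon length slope as a covariate (0%), 0 with the mitochondrial share as a covariate (0%), 0 with the exon length trend removed by offsets (4.98%) and 0 without the 3 libraries of lowest slope (0.0058%, added after the data were seen). It was 0 to 4 when each library was left out, with 0 without female rapamycin 1 (4.26% of all genes), 0 without female rapamycin 2 (5.15%) and 1 without male rapamycin 2 (5.85%). In females the count of 0 became 1 by DESeq2 (the share of all genes called went from 0.0121% to 5.05%), 1 without the filter on low counts (5.55%), 1 in batch 1 only (7.75%) and 0 to 3 when each library was left out, with 3 (Mtor, Rptor and Rictor) without female rapamycin 4 (12.6%) and 1 without male rapamycin 2 (2.74%) or male rapamycin 4 (2.07%). Where the count was 1, the member was Mtor. In males, for the difference between the sexes and for sex in vehicle mice, the count stayed 0 under each alternative run. For batch the count of 3 became 1, that of Telo2, with either covariate, while the share of all genes went from 35.5% to 12.6% (slope) and 10.3% (mitochondrial share). Signs turned for Mtor (0.00305), Deptor (0.145), Akt1s1 (-0.0112) and Mapkap1 (0.00148) with the slope covariate, and for Mlst8 (0.0139) and Mapkap1 (0.015) with the mitochondrial covariate. The Telo2 value of -0.006 became 0.0286 in DESeq2 with diet alone, 0.031 without a batch term, 0.0468 in batch 1 only, 0.131 with offsets, and -0.0555 to 0.0269 with each library left out. With the replicate block it was 0.00566, and 3 members were called: the block lost Rptor (adjusted p = 0.0548) and gained Prr5 (0.0429), with 7.84% of all genes called. Libraries of equal number and sex correlated in their deviations from the group means at -0.157 to 0.675, and since male pair 1 was negative the numbers were not taken to pair the libraries. The cause of these shifts was not tested. Mtor passed in 14 of the 16 fits with 1 library left out, Rptor in 13 and Rictor in 7.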
